A study of Mus musculus with 8 samples.

Results

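The largest cluster of mouse replication-dependent histone genes lies on chromosome 13, and CpG methylation across it was compared between nephron progenitors of calorie-restricted and unrestricted pregnancies. The interval was chr13:21700000-23800000 of mm10, and members were histone genes there whose symbols start with Hist1, H1f, H2ac, H2bc, H3c or H4c. By this rule 53 genes were taken, namely 6 of the linker histone H1, 14 of H2A, 13 of H2B, 9 of H3 and 11 of H4. Their CpGs were those in a gene model or within 1 kb of it that had at least 10 reads in all 8 libraries. These were 208 of 441994 such autosomal CpGs, and they filled 15 of 36513 tiles of 1 kb with at least 3 CpGs each. Of the 208 CpGs, 179 lay inside a gene model, 29 lay outside, and 54 fell to more than 1 gene, since many H2A and H2B genes stand head to head. The rest of the interval, with 295 CpGs and 31 tiles, served as local background.

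Replication-dependent histone genes supply the proteins that package newly copied DNA and are transcribed mainly in S phase. They are short, mostly have no introns, and their mRNAs end in a stem-loop in place of a poly(A) tail. Their transcription is gathered in nuclear bodies around the coactivator NPAT. Nephron progenitors, the cells that renew themselves and give rise to the epithelium of the nephron, keep dividing until nephron formation ends, and each division needs a new supply of histones.

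The assay was RRBS (reduced representation bisulfite sequencing, which samples mainly CpG-rich DNA), applied to cells sorted for green fluorescence from embryonic kidneys at E17.5. All embryos were heterozygous for the Six2-EGFP/Cre transgene, in which the Six2 promoter drives the reporter, and came from transgenic males and wild-type outbred CD1 females, both 8 to 10 weeks old. The dams received either 70% of the average daily intake (4 libraries, called restricted) or as much food as they took (4 libraries, called unrestricted), the sexes were not analysed apart, and the labels leave unsaid how many litters went into each library. P-values therefore measure only the spread between these libraries.

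A library held 16045992 to 37305007 CpG calls, summed over the cytosines listed. A call is 1 read at 1 cytosine, so a read that spans several CpGs gives several calls. Sums over CpGs below are calls, those of 1 read are not independent, and the number of sequencing reads per library is not given in the sources used here. In reads at single CpGs, the histone CpGs had a median of 17 to 34 reads each against 20 to 44 for all shared CpGs. On mitochondrial DNA, which gives the background of the conversion, 0.0221 to 0.0854% of CpG calls per library were called methylated. The windows around the starts of the progenitor genes Six2, Pax2, Sall1 and Hoxd11 were at 0.0364 to 0.0770% in the mean, and those of 4 other progenitor genes were not covered. The 3 covered windows of the ureteric bud list were at 0.205 to 0.261%, that of the stromal gene Foxd1 was at 0.0311%, and no window of the endothelial, blood or podocyte lists was covered. A methylation level is no measure of expression, so these values do not check the sort.

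RefSeq promoter windows, 250 bases before to 50 bases after each listed start on GRCm38.p6, were matched to 48 of the 53 genes. In 6 of the 49 windows at least 1 CpG was covered in all libraries. The 4 windows below, of linker and H4 genes whose levels are described further on, are shown because some of their CpGs were read in every library. They are printed 5′ to 3′, and capitals mark the CpGs covered in every library.
H1f2 (chr13:23738557-23738856, plus strand): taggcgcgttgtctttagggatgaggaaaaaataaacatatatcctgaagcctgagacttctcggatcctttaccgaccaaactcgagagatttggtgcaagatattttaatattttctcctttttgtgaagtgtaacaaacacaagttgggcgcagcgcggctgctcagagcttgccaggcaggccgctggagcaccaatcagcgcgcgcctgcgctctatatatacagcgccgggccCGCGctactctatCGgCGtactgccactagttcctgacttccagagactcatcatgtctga
H1f5 (chr13:21780576-21780875, minus strand): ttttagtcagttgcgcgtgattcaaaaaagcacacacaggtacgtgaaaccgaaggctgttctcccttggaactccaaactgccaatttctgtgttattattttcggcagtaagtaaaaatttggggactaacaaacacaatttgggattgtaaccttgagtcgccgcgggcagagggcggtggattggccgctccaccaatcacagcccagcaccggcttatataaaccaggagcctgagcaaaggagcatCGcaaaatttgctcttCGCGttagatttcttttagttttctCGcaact
H4c11 (chr13:21734784-21735083, plus strand): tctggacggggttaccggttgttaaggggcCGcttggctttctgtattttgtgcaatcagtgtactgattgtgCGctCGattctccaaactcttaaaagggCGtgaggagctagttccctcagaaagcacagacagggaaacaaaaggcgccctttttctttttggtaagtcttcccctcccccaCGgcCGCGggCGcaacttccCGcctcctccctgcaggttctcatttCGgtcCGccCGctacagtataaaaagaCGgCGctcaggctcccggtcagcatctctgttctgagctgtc
H4c9 (chr13:22041313-22041612, minus strand): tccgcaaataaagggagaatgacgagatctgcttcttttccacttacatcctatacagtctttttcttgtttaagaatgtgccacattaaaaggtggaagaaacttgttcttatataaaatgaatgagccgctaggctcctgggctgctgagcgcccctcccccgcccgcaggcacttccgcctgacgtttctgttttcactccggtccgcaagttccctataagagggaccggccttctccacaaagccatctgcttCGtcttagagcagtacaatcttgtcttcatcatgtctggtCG
At the capital letters of H4c11, 14 CpGs carried 1 methylated of 2281 calls over the 8 libraries. The H1f5 window had 0 methylated of 1664 calls at 4 CpGs, from 416 reads, which allows up to 0.721% of reads to be methylated. H1f2 had 0 of 1100 calls from 275 reads (up to 1.09%), and H4c9 had 0 of 591 from 296 reads (up to 1.01%). Together the 32 covered CpGs of the 6 windows carried 2 methylated of 7234 calls. With reads of any depth counted, 23 windows held 3 methylated of 10768 calls, or 0.0279%. These limits, and those given below for counts of 0, set 3 counts against the reads at the CpG of most reads. For a count of 0, 3 counts are about the upper 95% bound, and in this way no read counts more than once. The limits cover counting error only, since PCR copies cannot be told from separate molecules.

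The letters of the windows differed by histone class. The H1 box, AAACACA, a motif known from linker gene promoters, was found on either strand in 5 of 6 H1 windows and in 7.18% of all 32851 promoter windows. Its position was -112 from the start in H1f2 and -117 in H1f5. CCAAT stood in all H1, H2A, H2B and H3 windows but in 3 of 11 of H4, against 37.4% of all windows. The octamer ATTTGCAT, the motif bound by Oct-1, was found in 5 of 13 H2B and 4 of 12 H2A windows and in none of the others, against 1.74% of all windows. TATAAA stood in 59.2% of the histone windows and 13.6% of all windows. A match describes letters only.

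Coverage was uneven among the classes. At least 3 shared CpGs were found at 5 of 6 H1 genes, 4 of 14 H2A, 4 of 13 H2B, 4 of 11 H4 and 0 of 9 H3 genes. These 17 genes shared CpGs in pairs and made 13 distinct sets. All shared CpGs of the 4 H2A genes lay in the body of a neighbouring H2B gene or of H4c18, within 1 kb of the H2A gene. A further 3 genes (H2bc12, H3c7 and H2bc6) had 1 or 2 shared CpGs, 23 had reads but no shared CpG, and 10 had no read in any library. The testis-specific linker gene H1f6, which encodes H1t, was among these 10, so its level is not known from these libraries. CCGG, the site of MspI, the enzyme most often used for RRBS (the enzyme is not given in the sources used here), stood in 28.6% of histone windows and 52.8% of all windows. No H2A or H2B window held it, while 5 of 6 H1 and 7 of 11 H4 windows did. Among covered genes 8 of 16 windows held it, and among the others 6 of 33.

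**Figure D1:**
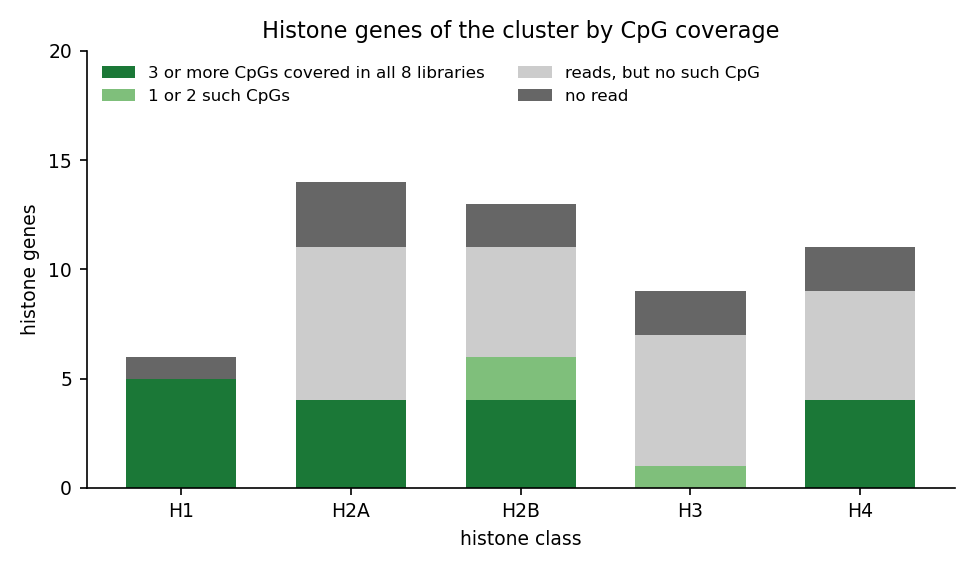
Number of histone genes per class (x axis) by how far the 8 libraries cover them, with bar segments from at least 3 shared CpGs (dark green) to no read (dark grey). H1 has 5 of 6 genes covered and H3 has 0 of 9.

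Nearly all covered histone CpGs were unmethylated under both diets. No methylated read was seen in any library at 168 of the 208 CpGs (80.8%), against 56.6% of all shared CpGs and 54.6% of the other CpGs of the interval. A further 30 CpGs had methylated reads in 1 library and 10 in more than 1. The median level of the 17 genes was 0.0763%, against 3.03% for all 18480 gene units, and 16 of the 17 lay under 1%, as did 42.2% of all gene units. These units are unlike, since histone genes are short and the units of longer genes take in more of the gene body. In windows from 1000 bases before to 500 after a start, the gene lists used here had medians of 0.0298 to 0.213%, where any window was covered.

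Mean methylation over the histone CpGs was close between the diets. It was 1.08%, 1.09%, 0.984% and 1.04% in restricted libraries 1 to 4 and 1.13%, 1.12%, 1.09% and 1.19% in the unrestricted ones. The means were 1.05% ± 0.0476 and 1.13% ± 0.0416 (SD, n = 4 each), a difference of -0.0875 percentage points. With each CpG weighted equally the groups did not overlap, with restricted library 2 just below unrestricted library 3. As shares of all calls they overlapped, at 1.08 to 1.84% in the restricted and 1.34 to 2.00% in the unrestricted libraries. Most of the mean level came from 2 CpGs in the long gene model of H2bc6, at positions 23591403 and 23591469. They lie between its listed starts, whose windows are chr13:23585921-23586220 and chr13:23621045-23621344, at -5433 and -5499 bases from the nearer one. They were at 93.2% ± 1.90 in the restricted and 94.6% ± 1.67 in the unrestricted group. These 2 were the only shared CpGs of H2bc6. With the reads of all libraries pooled, its CpGs 208 to 678 bases past a listed start were at 0 to 1.92%. Those had 52 to 65 reads each over all libraries, so the low level near the start rests on pooled reads only. Without the 2 far H2bc6 CpGs the other 206 CpGs averaged 0.152% ± 0.0584 and 0.227% ± 0.0544, from 30 methylated of 19403 calls and 51 of 25428 calls. The restricted libraries were then at 0.202%, 0.201%, 0.0880% and 0.116% and the unrestricted ones at 0.208%, 0.222%, 0.174% and 0.302%, with restricted libraries 1 and 2 inside the unrestricted range. No p-value is given for a mean over members, which were chosen with earlier results of these data known.

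The interval around the histone genes had a higher mean methylation, but the median CpG level was 0% in both sets. Of the other tiles 17 of 31 lay under 1%, against 14 of 15 histone tiles. The other CpGs of the interval averaged 10.0% ± 0.285 in the restricted and 10.2% ± 0.156 in the unrestricted group. The 126 of them near transfer RNA genes, which form dense groups between the histone genes, were at 1.37% ± 0.215 and 1.22% ± 0.229. Those near other genes (134 CpGs) stood at 4.98% ± 0.0445 and 5.11% ± 0.306, and the 35 near no gene at 60.4% ± 1.74 and 62.1% ± 0.683. The mean over all autosomal CpGs was 16.2% in both groups.

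**Figure D2:**
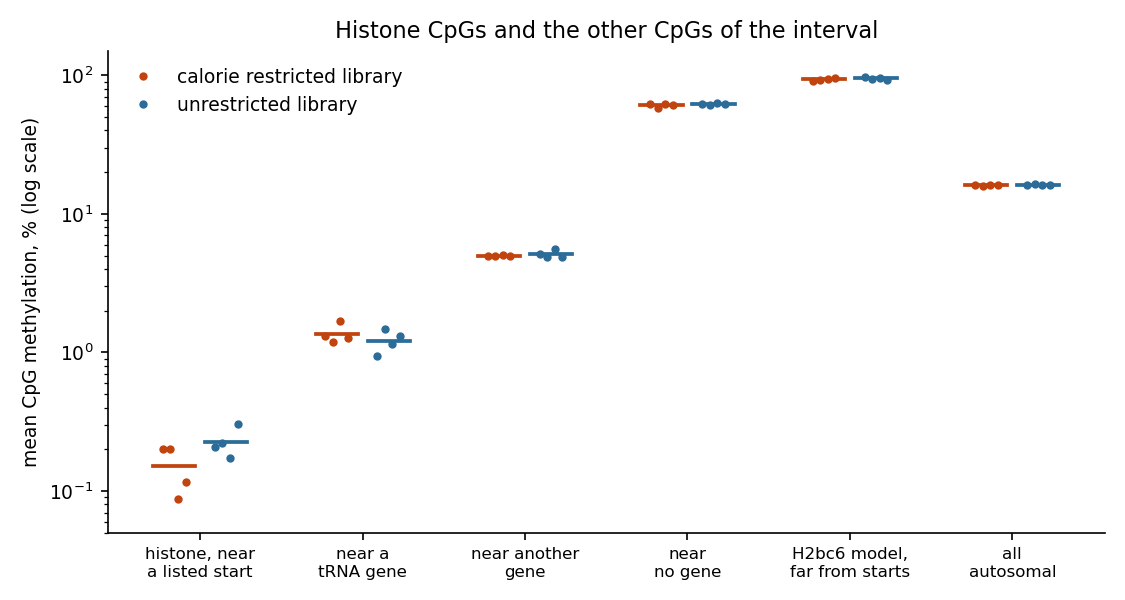
Mean CpG methylation per library (points, percent on a log axis; bars are group means) in sets of CpGs of the interval and over all autosomes, restricted in orange and unrestricted in blue. The histone CpGs near a listed start sit lowest, at 0.0880 to 0.302%, and the 2 CpGs deep in the H2bc6 model sit above 91%.

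Pooled levels differed with the distance from the starts, without an even course. With the reads of all libraries pooled, CpGs with at least 20 reads averaged 0% from -1000 to -500 bases (10 CpGs at 3 starts), 3.28% from -500 to -250 (4 CpGs, of which 1 was methylated) and 0.0354% in the 250 bases before a listed start. They averaged 0.0969% in the 250 bases after it, 0.193% from 250 to 500 and 0.496% from 500 to 1000 bases. Between 1000 and 2000 bases past a start the mean was 23.0%, with 6 of 16 CpGs above 20%, and these 16 CpGs belonged to 4 starts only. Of the 6, 4 lay past H1f1 and 2 past H4c18, and the other 10 were lower.

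**Figure D3:**
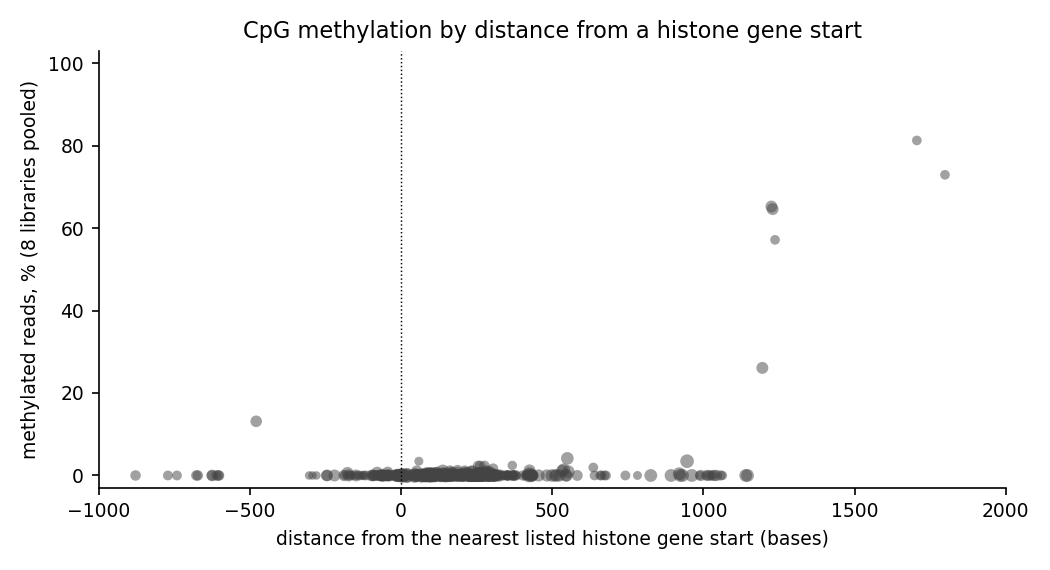
Each point is a CpG with at least 20 reads over the 8 libraries, by its distance from the nearest listed histone gene start (x axis, bases; larger points have more reads) and its pooled methylation (y axis, percent). Points lie near 0 up to 1000 bases past the start, apart from 1 CpG at -479 bases from H2bc9 with 13.1%, and the 6 above 20% lie beyond.

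Linker histone H1 binds DNA where it enters and leaves the nucleosome, and its 5 covered genes encode somatic subtypes. H1f5 was the highest of them. Its level was 0.611%, 0.190%, 0.161% and 0.157% in restricted libraries 1 to 4 and 0.122%, 0.106%, 0.375% and 0.358% in the unrestricted ones, over 20 CpGs. The groups overlapped throughout (0.280% ± 0.221 and 0.240% ± 0.146, adjusted p = 0.890). A single CpG in its gene body, position 21780075 and 550 bases past the start, had methylated reads in 6 of the 8 libraries, at 3.61% ± 2.41 and 4.67% ± 4.01.

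H1f2, which encodes H1.2, had the smallest p of the histone genes. It was at 0% in all 4 restricted libraries, with 0 of 3227 calls, and at 0%, 0.146%, 0% and 0.226% in the unrestricted ones. The difference of -0.0929 percentage points rested on 5 methylated of 4765 calls in 2 libraries (adjusted p = 0.458). The restricted group had at most 111 reads at a CpG, which allows up to 2.70% of reads. The groups overlapped at 0, and the gene did not pass the test.

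H1f1, which encodes H1.1, was at 0.316%, 0%, 0% and 0% in the restricted libraries and at 0.346%, 0.667%, 0.478% and 0% in the unrestricted ones, over 14 CpGs. The means of 0.0791% ± 0.158 and 0.373% ± 0.281 did not pass the test (adjusted p = 0.669). H1f4 was the lowest H1 gene, with 1 methylated call, in unrestricted library 4 (0.285%), and 0% in the other 7 libraries. H1f3 had 1 methylated call in restricted library 2 and 1 in unrestricted library 2.

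Past the end of H1f1 the DNA was methylated. At 3 CpGs 451, 481 and 485 bases beyond the annotated end, 7 libraries had 13 to 39 reads and restricted library 2 had 9, so they missed the minimum of 10 and were not among the 208. They were looked at after their values were seen. With a minimum of 5 reads the first was at 23.3% ± 7.43 in the restricted and 27.5% ± 7.15 in the unrestricted group, and the second at 55.1% ± 18.7 and 69.0% ± 7.03 (adjusted p = 0.963 and 0.673).

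The third, at position 23764897, was at 55.6%, 33.3%, 27.8% and 76.9% in restricted libraries 1 to 4 and at 85%, 66.7%, 100% and 68.2% in the unrestricted ones. Restricted library 4 lay inside the unrestricted range and the other 3 lay below it. The means were 48.4% ± 22.5 and 80.0% ± 15.7, a difference of -31.6 percentage points that did not pass the test over all CpGs (adjusted p = 0.486, and 0.422 without restricted library 2 at the minimum of 10). It had 9 to 39 reads per library, and the CpG only 4 bases before it differed by -14.0 points.

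**Figure D4:**
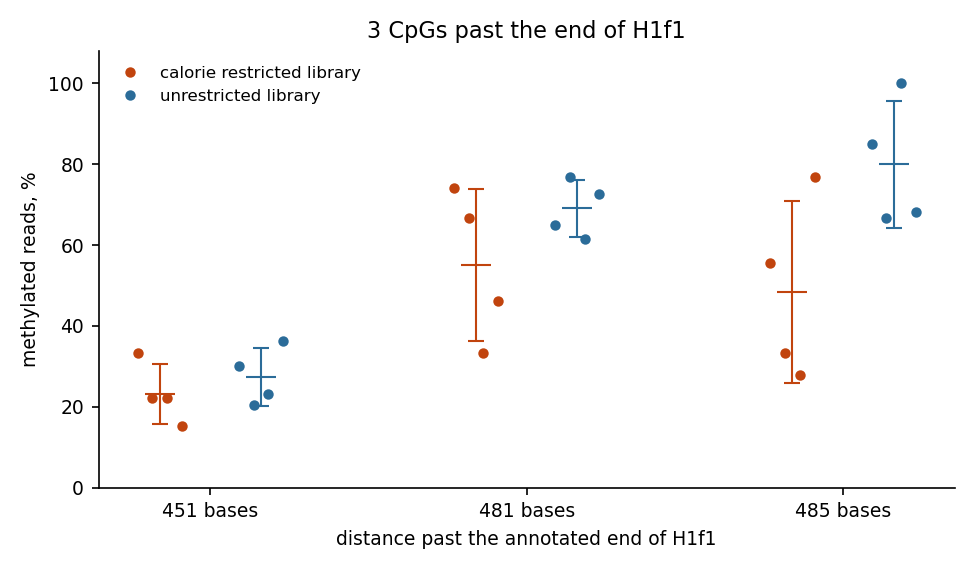
Methylation (y axis, percent of reads) at 3 CpGs past the end of H1f1 (x axis, bases beyond the annotated end), with 1 point per library, group means and SD bars (n = 4 each). At 485 bases, 3 restricted libraries lie at 27.8 to 55.6% and all unrestricted ones at 66.7% or more.

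H2A and H2B form the dimers that flank the H3-H4 tetramer, and their genes mostly share a promoter region in head-to-head pairs. In the covered pairs below, every shared CpG lay in the body of the H2B gene, so no H2A body was covered. The pair H2ac14 and H2bc14, of which RefSeq lists the first as a pseudogene, shared 12 CpGs. It was at 0.220%, 0%, 0.397% and 0.521% in the restricted and 0%, 0%, 0.333% and 0.379% in the unrestricted libraries, each value above 0 being 1 methylated call (adjusted p = 0.857). H2ac15 and H2bc15, the lowest of both classes, had 1 methylated call over 13 CpGs, in restricted library 2 (0.513%), and none elsewhere. H2ac11 and H2bc11 showed 0 of 1358 calls in the restricted group, from 97 reads (up to 3.09% of reads), and 0%, 0%, 0.325% and 0.286% in the unrestricted libraries (adjusted p = 0.611).

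H2bc9 was the highest of the 17 genes. It stood at 1.69%, 3.30%, 0.704% and 0% in the restricted and at 4.72%, 0.897%, 0% and 1.93% in the unrestricted libraries, over 5 CpGs. The means of 1.42% ± 1.43 and 1.89% ± 2.05 overlapped widely (adjusted p = 0.944). All but 1 of its methylated calls came from a CpG at -479 bases from its start and 129 bases from H3c7, position 23543923. That CpG was at 11.5%, 14.3%, 6.25% and 0% in the restricted and at 30.0%, 11.8%, 0% and 22.2% in the unrestricted libraries, with 11 to 26 reads each (8.02% ± 6.30 and 16% ± 13, adjusted p = 0.622). A CpG 946 bases past the start of H2bc12, its only shared one, was at 0 to 7.41% (2.96% ± 3.63 and 3.73% ± 1.12).

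Of the H2A and H2B genes without shared CpGs, H2bc7 and H2ac7 had 1050 and 1371 calls over all libraries, with 10 methylated calls each. In restricted library 2 alone 7 of 192 and 7 of 237 calls were methylated. The flanks of this pair overlap, and both genes had the same methylated counts in every library. H2bc4, whose model is long, had 13 methylated of 599 calls, in 6 of the 8 libraries. H2ac10, H2ac6, H2bc13 and H2ac13 had 163 to 554 calls and no methylated one.

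H3 and H4 form the central tetramer of the nucleosome. No H3 gene reached 3 shared CpGs. H3c7 had 2, of which 1 is the CpG between it and H2bc9. With reads of any depth, H3c8 had 0 methylated of 163 calls, H3c6 0 of 603, H3c4 0 of 321 and H3c1 2 of 1524, while H3c11 and H3c2 had no read and H3c10 and H3c3 had 32 and 9 calls, with 1 and 0 methylated. The counts of H3c8 were the same as those of H2ac10 in every library. H3c1 and H4c1 had the same methylated counts in every library, since their flanks overlap.

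H4c9 was the only covered histone gene whose diet groups did not overlap. It was at 0% in all 4 restricted libraries, with 0 of 1249 calls from up to 125 reads (up to 2.40% of reads), and at 0.250%, 0.189%, 0.313% and 0.218% in unrestricted libraries 1 to 4 (0.243% ± 0.0535, 10 CpGs). Each unrestricted value was 1 methylated call of 319 to 530, so the separation rests on 4 calls. The 10 CpGs had almost the same number of reads each, up to 40, 53, 32 and 46 in unrestricted libraries 1 to 4, and the difference did not pass the test (adjusted p = 0.481). Among all 17797 tested gene units, 4.35% had groups that did not overlap, and among the 17 histone genes 1 did. The CpG 138 bases past its start, position 22041224, held 3 of these 4 calls (adjusted p = 0.622).

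H4c18 and the neighbouring H2ac24 shared 13 CpGs, all in the body of H4c18. They were at 0%, 0.321%, 0.198% and 0% in the restricted and 0%, 0.175%, 0% and 0.167% in the unrestricted libraries (adjusted p = 0.966). Their values are uncertain, since the promoter windows of H4c17 and H4c18 share a run of 285 identical bases and reads could be placed at either copy. H4c11 was the lowest H4 gene, with 3 methylated calls over 25 CpGs, in restricted libraries 1 (0.138%) and 4 (0.272%) and unrestricted library 2 (0.113%). H4c3 had 1 methylated call in restricted library 1 and 1 in unrestricted library 4. Among H4 genes without shared CpGs, H4c8 had 0 methylated of 1217 calls at any depth, H4c1 2 of 1530 (largely the calls given for H3c1) and H4c6 4 of 40.

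**Figure D5:**
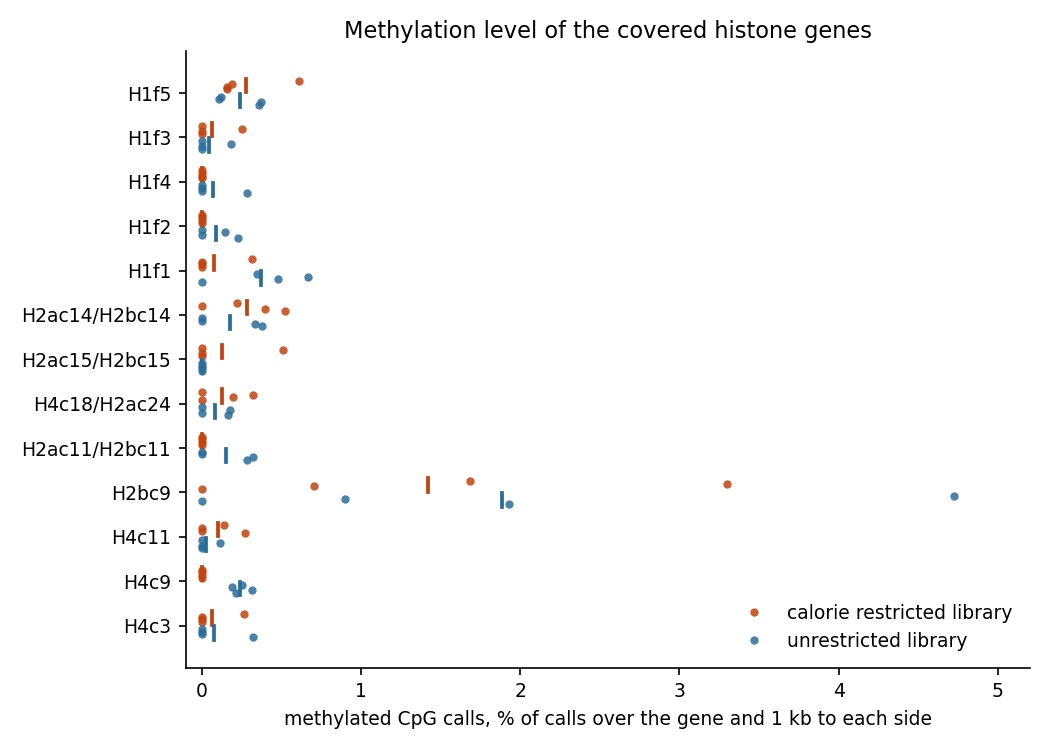
Methylation level (x axis, percent of CpG calls) of the 13 distinct CpG sets of covered histone genes (y axis), with 1 point per library in orange (restricted) or blue (unrestricted) and a bar at each group mean. All values but those of H2bc9 lie under 0.7%, and at H4c9 the 4 restricted libraries lie at 0 and the 4 unrestricted ones above it.

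No unit of the cluster passed the diet test, a logistic regression with moderated dispersion. Of the 15 tiles 14 could be tested and 0 were called, against 0.0177% of all tiles tested. At an unadjusted p under 0.05 lay 1 (7.14%), against 6.32% of all tiles tested, and the lowest adjusted p was 0.773. The limma and edgeR tests also called 0 tiles, each with 1 under 0.05, and their own shares over all units are not given here. Of the 17 genes 0 were called, as were 0% of all 17797 gene units tested. Again 1 lay under 0.05, against 1930 of the 17797 gene units, and edgeR also gave 1 while limma gave 0. Of the 208 CpGs 40 had any methylated read and could be tested, and 0 were called, against 0.0997% of all CpGs tested. None lay under 0.05 by either the logistic or the limma test, and the lowest adjusted p was 0.622.

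The 5 histone tiles of smallest p held few methylated calls. A tile of H1f2 (chr13:23739001-23740000, 19 CpGs) was at 0% in the restricted group and 0.152% ± 0.183 in the unrestricted one. Those of H4c9 (chr13:22041001-22042000) and of H2ac11 and H2bc11 (chr13:22043001-22044000) repeated the values of their genes. The tile over H4c11 (chr13:21735001-21736000, 16 CpGs) and that of H2ac15 and H2bc15 (chr13:21754001-21755000, 13 CpGs) went the other way, at 0.145% ± 0.183 and 0.128% ± 0.256 against 0%. All 5 had an adjusted p of 0.773. Over the 14 tiles the restricted group was higher in 6 and lower in 8, with a median difference of -0.0138 percentage points among the 15, against 0 over all autosomal tiles.

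The single CpGs of smallest p were 5, each with an adjusted p of 0.622. Besides those near H4c9 and H2bc9 already given, position 23764093 in H1f1 was at 0% in the restricted libraries and had 1 methylated read each in unrestricted libraries 2 and 3. Position 23739042 in H1f2 had 2 methylated reads, both in unrestricted library 2 (4.17%), and position 23543019 in H2bc9 had 1, in restricted library 2 (4.76%).

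Among the 31 other tiles of the interval, 27 could be tested and 0 were called. Under an unadjusted p of 0.05 lay 2 (7.41%), against 6.32% of all tiles tested by the logistic test. Limma gave 3 and edgeR 2, for which no share over all tiles is given here, and each called 0. A tile at the aspartate transfer RNA gene n-TDgtc12 (chr13:21940001-21941000, 4 CpGs) was at 1.19%, 0.581%, 0.397% and 1.61% in the restricted libraries and at 0% in all unrestricted ones (adjusted p = 0.676). It had 8 methylated calls in all, from 1 to 4 per restricted library. A tile at the valine transfer RNA gene n-TVcac2 (chr13:23411001-23412000, 5 CpGs) was at 1.58% ± 1.02 and 3.45% ± 1.53 (adjusted p = 0.772), with overlapping libraries. The tile of the third smallest p (chr13:23368001-23369000, 7 CpGs), near the zinc finger gene Zfp322a, had 1 methylated call, in restricted library 1.

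Of 18 histone genes outside the rule 12 were covered, and 9 of these were under 1%, with a median of 0.123%. H4c14 on chromosome 3 was at 0.802% ± 1.27 in the restricted and 1.20% ± 1.17 in the unrestricted group. The smallest p were those of H2bc21 and H2ac20, a pair on chromosome 3, at 0.706% ± 1.27 and 0.646% ± 1.16 in the restricted and 0.0628% ± 0.126 and 0.0884% ± 0.108 in the unrestricted group. Restricted library 3 alone was high, at 2.60% and 2.39% (adjusted p = 0.525 and 0.563). The flanks of the pair overlap and share CpGs, so the values of these genes are not independent.

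The other 2 of the 12 were the testis-type pair H2bc1 and H2ac1, which encodes TH2B and TH2A and lies on chromosome 13 just beyond the interval. Its 17 shared CpGs were at 93.3%, 93.0%, 93.1% and 93.6% in the restricted and at 93.7%, 96.5%, 87.7% and 91.1% in the unrestricted libraries. The means were 93.3% ± 0.265 and 92.2% ± 3.76 (adjusted p = 0.934), so this neighbouring pair was methylated in both groups to nearly the level of the 2 distant H2bc6 CpGs.

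Genes that act on histone supply were compared, over the whole gene and 1 kb to each side, from lists chosen with earlier results known. No gene of these 4 lists or of the histone genes outside the rule passed the logistic test (0 of 42 tested). By that test 1 lay at an unadjusted p under 0.05, against 1930 of all 17797 gene units tested. Limma and edgeR also called 0, with 6 and 4 under 0.05. No share over all units is given here for these tests, so their counts cannot be set against the logistic share. In each of the 4 lists the median difference lay between -0.00388 and 0.0452 percentage points, against -0.0490 over all gene units. For transcription all 10 entries were covered, with a median level of 0.0486%. E2f1, an S-phase transcription factor, was at 1.09%, 0.995%, 0.532% and 0.943% in the restricted and 0.639%, 0.332%, 0.338% and 0.441% in the unrestricted libraries (0.890% ± 0.246 and 0.437% ± 0.144, adjusted p = 0.459). Pou2f1, which encodes the octamer-binding Oct-1, was at 4.99% ± 1.82 and 6.35% ± 1.40 (adjusted p = 0.594), and Npat was at 0.0356% ± 0.0411 and 0.0169% ± 0.0339. Gon4l was the highest of the list, at 90.4% ± 3.05 and 90.6% ± 3.02 over 3 CpGs.

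For processing of the mRNA end 8 of 10 entries were covered, with a median of 0.308%. Sympk, a scaffold of the cleavage complex, was at 22.9% ± 2.45 and 21.1% ± 1.73 (adjusted p = 0.680). Cpsf2, a subunit of that complex, was at 0.0653% in restricted library 1 and at 0% elsewhere (adjusted p = 0.682). Slbp, which encodes the protein that binds the stem-loop, was at 0% and 0.0202% ± 0.0404.

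For chaperones 9 of 10 entries were covered, with a median of 0.0584%. Chaf1a, the large subunit of the assembly factor CAF-1, was at 1.5%, 1.53%, 2.14% and 2.49% in the restricted and 2.45%, 2.89%, 4.33% and 2.61% in the unrestricted libraries. Its means of 1.92% ± 0.483 and 3.07% ± 0.860 overlapped at restricted library 4 (adjusted p = 0.366, the lowest of the lists). Its difference of -1.15 points became -4.15 with a minimum of 5 reads per CpG and 0.0653 with 20, and lay between -2.71 (without restricted library 2) and -0.725 (without unrestricted library 3) with 1 library left out. Daxx, a chaperone of the H3.3 variant, was at 1.62% ± 0.855 and 1.01% ± 0.635 (adjusted p = 0.582).

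For replication-independent histones 10 of 11 entries were covered, with a median of 0.0517%. H2az1, which encodes H2A.Z, was at 0.252% ± 0.0680 and 0.112% ± 0.0572 (adjusted p = 0.547). H2ax, which encodes the damage-marking H2A.X, was at 0.184% in restricted library 1 and at 0% in the other 7 (adjusted p = 0.544). The macroH2A gene Macroh2a2 was the highest of the list, at 21.8% ± 6.74 and 21.9% ± 3.07. In windows from 1000 bases before to 500 after a start, it was at 0.159% and 0.0174%. Sympk was at 0.642% and 0.776% there, Pou2f1 at 0.0502% and 0%, and Chaf1a at 0.0590% and 0.0203%. The windows of E2f1 and Gon4l were not covered. The highest covered window was at 0.0658% for transcription, 6.69% for mRNA end processing, 0.0883% for chaperones and 0.531% for replication-independent histones.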

How the data were processed

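RRBS was deposited for 8 libraries, 4 per diet, with groups and replicate numbers from the sample titles. Per the submitters' processing notes, the reads went through Bismark 0.13.1 on build mm10 and methylKit, with FastQC, cutadapt and Trim Galore 0.3.3 also named and no settings given. The authors deposited, for each CpG cytosine, the count of reads and the percent of them called methylated or unmethylated. The percentages are rounded, and methylated reads were recovered from them within 0.0488 of a whole number. Both strands of a CpG were merged by adding their reads. The files list cytosines from 1 read up, and the minimum of 10 reads in all 8 libraries, on autosomes, was applied here.

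Units were 1 kb tiles and RefSeq genes with 1 kb to each side (at least 3 CpGs each) and single CpGs. Gene models and promoter sequences came from RefSeq tables of GRCm38.p6, the coordinates of mm10. Exons, introns and UTRs were not analysed here. Listed starts are those of the promoter table. Only units with both methylated and unmethylated reads could be tested (33897 tiles, 17797 genes and 191637 CpGs). The test fitted a binomial logistic model to methylated and unmethylated reads, with diet as its term. Its F test used a Pearson dispersion moderated by a Python 3.11.15 port of limma's squeezeVar and not under 1, with Benjamini-Hochberg adjustment over all units and calls at 0.05. The port gave limma's own values on simulated data, and the test was tried on simulated tiles. Levels of genes and tiles are methylated calls (1 read at 1 CpG) of all calls per library, calls of 1 read are not independent and the dispersion is estimated between libraries, and means of CpG sets weight each CpG equally. Alternatives used limma 3.58.1 on M-values, edgeR 4.0.16, other minimums, tile sizes and flanks, and each library left out.

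Genes with values in the text were the 2 highest and the lowest of each histone class, any histone gene over 20%, H1f6, the 5 genes, tiles and CpGs of smallest p, 3 other tiles of smallest p and 2 genes of smallest p per list. Npat, Gon4l, Slbp, Macroh2a2, H4c14, H2bc1, H2ac1, H1f3, H4c3, the CpGs past H1f1, that within H1f5 and genes with fewer than 3 shared CpGs were added after their values were seen. Members and lists were chosen with earlier results of these data known.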

Additional observations from a re-analysis of the deposited data

Results flagged for a closer look

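Groups of 4 were checked with Dixon's 95% critical value. A library was marked when its gap to the nearest other library was too large a share of the group's range. For normal values chance gives this in about 1 in 20 groups, but a group with only 1 library above 0 is always marked. Of 84 groups 14 were marked, and in 11 of them the other 3 libraries were at 0, so this count cannot be set against 1 in 20.

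Restricted library 1 stood highest of its group at H1f5 (0.611%, others 0.157 to 0.190%), and alone above 0 at H1f1 (0.316%), Cpsf2 (0.0653%), H2ax (0.184%) and the tile of Zfp322a (0.493%). Restricted library 2 was alone above 0 at H2ac15 and H2bc15 (0.513%), at their tile (0.513%, the same call) and at the CpG 23543019 of H2bc9 (4.76%). Restricted library 3 was far above its group at H2bc21 (2.60%, others up to 0.225%) and H2ac20 (2.39%, others up to 0.199%). The flanks of this pair overlap and share CpGs, so these marks are not independent. Unrestricted libraries were alone above 0 at H1f4 (library 4, 0.285%), H4c11 (library 2, 0.113%), H2bc21 (library 1, 0.251%) and the CpG 23739042 of H1f2 (library 2, 4.17%).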

How the results depend on the processing

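No tile, gene or CpG of the cluster, no other tile of the interval and no gene of the lists was called under any planned setting that gave a test. The labels do not say whether replicate numbers pair the libraries, and the values showed no sign of it. Same-numbered libraries correlated at -0.0872 to -0.0129 in their deviations from the group means, and differently numbered ones at -0.108 to 0.0926. With the replicate block, 0 histone tiles, genes and CpGs, 0 other tiles and 0 list genes were called, and it changed no call.

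The mean over histone CpGs was lower in the restricted group under every setting, all drawn from the same 8 libraries. Without 1 library the difference ranged from -0.320 to -0.0665 percentage points. It was -0.320 without restricted library 2 (222 CpGs) and -0.419 without restricted libraries 1 and 2, where the CpGs past H1f1 enter. A minimum of 5 reads gave -0.283 (251 CpGs), or -0.0857 without those 3 CpGs (a setting added after seeing the data), and a minimum of 20 reads gave -0.161 (46 CpGs). Gene bodies alone gave -0.0384 and pooled reads -0.162. Without the 2 far H2bc6 CpGs and that before H2bc9, left out after seeing the data, it was -0.0363. At the minimum of 10 reads the restricted group was also lower over the other CpGs of the interval (-0.194) and over all autosomal CpGs (-0.0569). The part of the interval near transfer RNA genes was higher (0.149).

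The histone mean minus that of the other CpGs of the interval was -9.02 points, and negative under every setting. It was -17.8 with a minimum of 5 reads (-18.4 without the 3 CpGs past H1f1), -3.38 with 20, and -14.0 without restricted libraries 1 and 2. It was -8.08 for gene bodies, -8.42 for pooled reads, -9.92 without the far H2bc6 CpGs and -9.98 also without that before H2bc9, and -13.6 to -8.85 without 1 library.

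Differences of single items changed sign in 21 of 619 comparisons, none called. With a minimum of 5 reads these were H1f5 (-0.00918), E2f1 (-0.381) and H2ax (-0.00786), and with 20 reads Pou2f1 (0.0717) and Chaf1a (0.0653). Without restricted libraries 1 and 2 they were H1f5 (-0.0809), Pou2f1 (0.148), Daxx (-0.0427) and H2ax (-0.0439). Leaving out 1 library gave ranges through 0 for H1f5 (-0.0704 without restricted library 1, -0.00478 without unrestricted 2, up to 0.0846), H2ac24 and H4c18 (-0.0196 without restricted 2, up to 0.0872), H2ac20 (-0.0221 without restricted 3, up to 0.773), H2bc9 (-1.10 to 0.479, the latter without unrestricted 1, and 0.00703 without restricted 4) and E2f1 (-0.0683 without restricted 4, up to 0.555). Tiles of 2 kb turned that of Zfp322a (-0.00613). On limma's log2 scale H1f4 (0.357), H2bc9 (0.077) and the CpG 23739042 (0.0288) turned. The cause was not tested. H1f1 moved from -0.294 to -2.12 without restricted library 2 and to -3.27 with a minimum of 5 reads, where the CpGs past its end enter.

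Depth limits single CpGs most: at 17 to 34 reads each, 1 methylated read moves a level by several points, and genes without reads remain unmeasured.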
